A study of Mus musculus with 151 samples.

Results

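A set of 5 genes, of the 35976 gene names in each count table, was followed across the ovary and its cells: Nt5e, Nrcam, Echdc2, Tmx1 and A4galt. They were selected on their measured values in 12-week cumulus cells, where CPM (read counts scaled to a common library total) differed between females conceived by IVF and females conceived by natural mating. Their difference in that tissue is therefore a description of the choice and carries no test, and the tests of IVF against Natural below come from other tissues and ages. The test of cumulus cells against oocytes uses 5 of the same cumulus libraries and is not independent of the choice. All 5 genes were found in all 7 tables, and all 5 passed the filter on low counts in every comparison.

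The mice were females from CF-1 females crossed with B6/SJL males. Natural animals came from mating, and IVF animals came from eggs of superovulated females fertilised in vitro, cultured to blastocysts and transferred to CF-1 recipients, whereas Natural embryos were neither cultured nor transferred. RNA was measured in whole ovaries of fetuses at stage E18.5 (4 Natural and 6 IVF), at 12 weeks (4 and 5) and at 39 weeks (5 and 5), in pools of 100 primordial germ cells (PGCs, the embryonic precursors of eggs) at E13.5 (4 and 5), in single oocytes at 12 weeks (36 and 40) and 39 weeks (9 and 10), and in pools of cumulus cells at 12 weeks (5 and 5). In the labels 1 Natural ovary of the 39-week group is titled 39 weeks but has 40 weeks in its source name. The donors of oocytes and cumulus cells were themselves hormonally superovulated before collection, in both groups. Cumulus cells at 39 weeks were not analysed here. The labels do not say that each library came from its own animal, so p-values measure the spread between libraries.

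Cumulus cells are the granulosa cells that surround the oocyte, feed it metabolites through gap junctions and, after the ovulatory hormone surge, spin out a hyaluronan matrix around it. The 5 genes work in different parts of such a cell. Nt5e encodes CD73, a cell-surface enzyme that turns AMP into adenosine, and Nrcam encodes an adhesion molecule of the L1 family of the immunoglobulin superfamily. Echdc2 encodes a mitochondrial protein related to the enoyl-CoA hydratases of fatty acid oxidation, Tmx1 a thioredoxin-like enzyme in the membrane of the endoplasmic reticulum, and A4galt the galactosyltransferase that makes the glycolipid Gb3, the start of the globo series.

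In the GRCm38 annotation (GENCODE vM21) the genes lie apart. Nt5e spans chr9:88327197-88372092 on the plus strand, Nrcam chr12:44328885-44601964 (plus), Echdc2 chr4:108165437-108179308 (plus), Tmx1 chr12:70453095-70468040 (plus) and A4galt chr15:83226722-83251774 (minus). Sequence upstream of their transcription starts (RefSeq, GRCm38.p6) is shown because the genes were picked as moving together, 2 upwards and 3 downwards, and it lets the regions in front of them be compared. Bases are printed 5′ to 3′ on the gene's strand, from the far end of a 250-base window up to the first base in an annotated exon or gene. That leaves 151 bases for Nrcam, 249 for Echdc2, 191 for Tmx1 and 205 for A4galt. For Nt5e none are printed, as the far end of its 250-base window already lies in an annotated exon or gene. Capitals mark exact matches, on either strand, to GGGCGG or ACGTG.
Nrcam, chr12:44328635-44328785: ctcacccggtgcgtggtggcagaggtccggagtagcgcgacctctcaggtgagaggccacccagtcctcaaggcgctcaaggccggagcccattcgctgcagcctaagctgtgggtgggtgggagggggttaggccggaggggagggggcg
Echdc2, chr4:108165187-108165435: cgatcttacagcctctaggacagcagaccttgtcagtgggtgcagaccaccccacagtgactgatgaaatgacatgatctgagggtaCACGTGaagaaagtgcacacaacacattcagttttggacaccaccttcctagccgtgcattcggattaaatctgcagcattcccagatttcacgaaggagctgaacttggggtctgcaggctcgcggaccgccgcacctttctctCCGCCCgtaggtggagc
Tmx1, chr12:70452904-70453094: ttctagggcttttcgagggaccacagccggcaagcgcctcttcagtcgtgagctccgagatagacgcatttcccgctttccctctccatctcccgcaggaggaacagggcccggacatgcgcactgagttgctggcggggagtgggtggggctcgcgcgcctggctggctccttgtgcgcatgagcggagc
A4galt, chr15:83251775-83251979: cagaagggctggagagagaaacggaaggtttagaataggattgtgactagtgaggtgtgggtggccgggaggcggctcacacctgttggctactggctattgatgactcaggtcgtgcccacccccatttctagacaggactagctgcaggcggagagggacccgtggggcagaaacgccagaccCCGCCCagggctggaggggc

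A set of 6 short motifs was searched on both strands in the 250 bases before each start, and the same was done for all 32851 RefSeq promoters. GGGCGG, the GC box, was found in 4 of the 5 windows: 4 matches for Nt5e, 3 for A4galt and 1 each for Nrcam and Echdc2, some of them outside the printed bases. Of all promoters 32.7% held it. ACGTG was found for Echdc2 alone, as CACGTG read from both strands, and 16.6% of all promoters held it. TATAAA (12.4% of promoters), CCAAT (33.8%), TGACGTCA (1.55%) and AAGGTCA (4.08%) were found in none of the 5 windows, so no searched motif was common to all 5. CpG in these windows numbered 25 for Nrcam, 24 for Tmx1, 21 for Nt5e, 13 for A4galt and 11 for Echdc2, against a median of 6 over all promoters. The share of promoters with as many or fewer was 90.4% for Nrcam, 89.3% for Tmx1, 85.2% for Nt5e, 70.6% for A4galt and 66.5% for Echdc2.

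Total counts per library were 2532824 to 6345249 in cumulus cells, 6995713 to 14830788 in E18.5 ovaries, 2839022 to 43363799 in 12-week ovaries, 18079970 to 38751638 in 39-week ovaries, 4364495 to 8675189 in PGCs, 839781 to 10879166 in 12-week oocytes and 2820748 to 31126357 in 39-week oocytes. Cumulus libraries were checked against their cell type: Inha, an inhibin subunit of granulosa cells, was at 845 CPM or more in all 10, and 12 oocyte markers summed to at most 69.5 CPM, against at least 33653 CPM in the 12-week oocyte sets. Of the other granulosa markers, Inhba (117 CPM or more) and Fst (50.4 CPM or more) were also high. Kctd14, Hsd17b1, Nr5a2 and Inhbb reached at most 51.9, 41.7, 34.0 and 25.9 CPM. Fshr, Amh, Foxl2 and Cyp19a1 reached at most 10.8, 8.69, 6.83 and 5.37 CPM. Among markers of cumulus expansion Tnfaip6, Ptgs2, Star and Ptx3 reached 608, 469, 189 and 102 CPM. Btc and Ereg reached 23.0 and 16.5 CPM. Has2, which makes the hyaluronan of the expanding cumulus, reached at most 2.94 CPM, Pgr 1.95 CPM and Areg 0.972 CPM.

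The 10 cumulus libraries fall into 4 whose names give the conception (2 Natural, 2 IVF, called the named set here) and 6 whose names give numbers instead (3 and 3, the numbered set). The 2 sets differ widely in level for Nt5e and Echdc2, so fold changes were fitted with the library set as a term. The first 2 fields of these names, and of oocyte names of the same form, were read as a donor set. The labels do not state that they are donors. A Natural library of the numbered set carries 126_2, a number whose oocytes are labelled IVF, and the fitted differences are also given without this library.

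Nt5e was the more abundant of the 2 genes chosen as higher in IVF. Within the named set it was at 265 and 250 CPM in Natural and at 347 and 395 CPM in IVF. Within the numbered set the Natural libraries were at 109, 108 and 131 CPM and the IVF libraries at 281, 135 and 203 CPM. In each set every IVF library thus lay above every Natural library, by 1.44 times (named) and 1.78 times (numbered) in the mean, although over all 10 libraries the groups overlapped because the named Natural libraries stood above 2 of the numbered IVF ones. Means were 173 ± 78.2 CPM in Natural and 272 ± 105 CPM in IVF (SD, n = 5 each), and the fitted difference was 0.71 on the log2 scale, or 0.67 without library 126_2.

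Nrcam was low and uneven. Named Natural libraries had 12 and 29 reads (2.88 and 6.21 CPM), and named IVF libraries 152 and 219 reads (24.8 and 35.4 CPM). Numbered Natural libraries were at 12.3, 24.4 and 33.2 CPM and numbered IVF libraries at 28.3, 54.3 and 24.3 CPM. The difference was 6.63 times in the named set, without overlap, and 1.53 times in the numbered set, where the groups overlapped. Group means were 15.8 ± 12.7 CPM in Natural and 33.4 ± 12.5 CPM in IVF (SD, n = 5 each), a fitted log2 difference of 1.34, and 1.24 without library 126_2. The mean ratios of the sets correspond to log2 differences of 2.73 and 0.61.

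Echdc2 was lower in every IVF library than in any Natural library. The named Natural libraries stood far apart at 1087 and 1053 CPM, above 343 and 311 CPM in the named IVF libraries. In the numbered set Natural libraries were at 369, 405 and 351 CPM and IVF libraries at 257, 103 and 275 CPM. Natural exceeded IVF 3.27 times in the named set and 1.77 times in the numbered set, with means of 653 ± 381 CPM and 258 ± 92.8 CPM (SD, n = 5 each). The fitted log2 difference was -1.18, with -1.71 in the named set, -0.83 in the numbered set and -1.24 without library 126_2.

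Tmx1 had no overlap either, and its Natural means were close in both sets, at 639 CPM (named) and 655 CPM (numbered). Natural libraries were at 716 and 562 CPM (named) and 717, 791 and 457 CPM (numbered). IVF libraries were at 428 and 426 CPM (named) and 439, 206 and 341 CPM (numbered). Means were 649 ± 136 CPM and 368 ± 98.6 CPM (SD, n = 5 each), and Natural exceeded IVF 1.99 times in the numbered set, with a log2 difference of -0.58 in the named set. The fitted log2 difference was -0.83, and -0.76 without library 126_2.

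A4galt was the least abundant of the 3 genes chosen as lower in IVF. Natural libraries were at 42.3 and 43.2 CPM (named) and 16.9, 38.5 and 27.2 CPM (numbered), the lowest being library 126_2. IVF libraries were at 10.8 and 14.5 CPM (named) and 22.0, 8.87 and 11.0 CPM (numbered), so the groups overlapped through 2 libraries, 126_2 in Natural and 126_3 in IVF. Means were 33.6 ± 11.3 CPM and 13.4 ± 5.23 CPM (SD, n = 5 each), a fitted log2 difference of -1.32, and -1.49 without library 126_2.

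Leaving library 126_2 out of the group values as well was chosen after the data were seen. Natural means were then 188 ± 80.5 CPM for Nt5e, 16.7 ± 14.5 CPM for Nrcam, 724 ± 400.2 CPM for Echdc2, 632 ± 150.1 CPM for Tmx1 and 37.8 ± 7.36 CPM for A4galt (SD, n = 4). Within the numbered set IVF exceeded Natural 1.72 times for Nt5e and 1.24 times for Nrcam, which still overlapped, and Natural exceeded IVF 1.79 times for Echdc2 and 1.90 times for Tmx1. For A4galt that ratio was 2.35, and its groups no longer overlapped over the remaining 9 libraries.

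**Figure D1:**
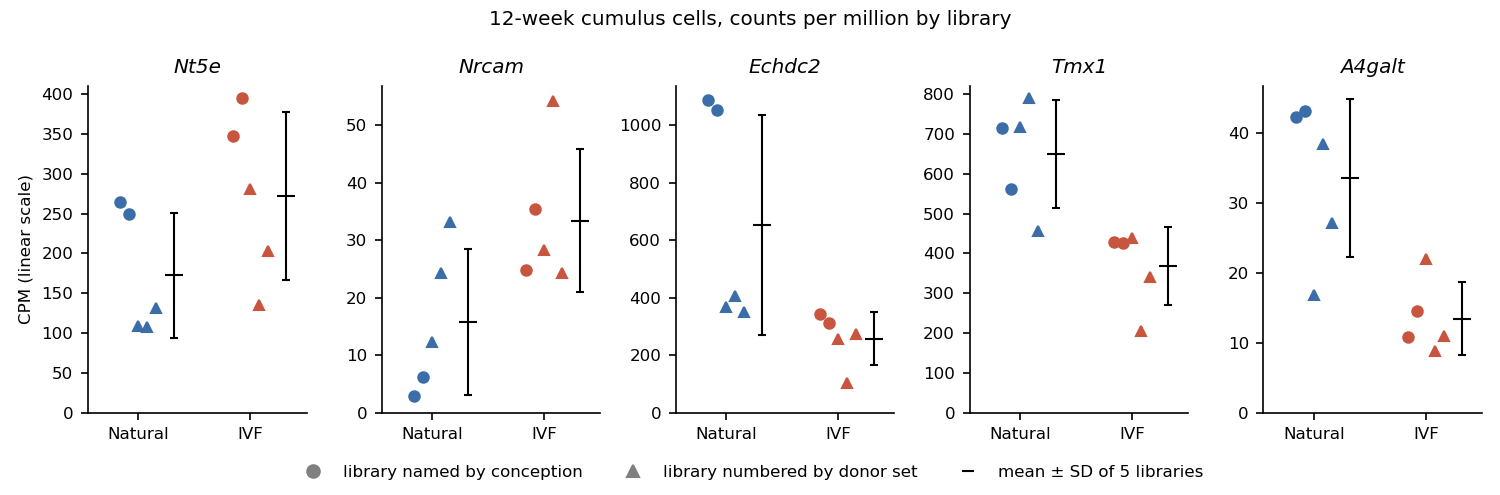
CPM (linear vertical axis) of each gene in the 5 Natural and 5 IVF cumulus libraries at 12 weeks, with circles for the named set, triangles for the numbered set and bars for mean ± SD. Echdc2 and Tmx1 do not overlap between the groups, and the 2 named Natural libraries stand at 1053 and 1087 CPM for Echdc2.

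Against all 10280 genes tested in cumulus cells, edgeR's quasi-likelihood test with Benjamini-Hochberg adjustment called 0 of the 5 genes, with 5 of 5 at an unadjusted p below 0.05 and 5 of 5 called by DESeq2; over all genes edgeR called 0.00973%. Groups did not overlap for 2 of the 5 genes and for 0.759% of all genes. Both counts rest on the contrast that chose the genes, and nothing is read from them. In bulk pools such as these, fewer cells of a type and less RNA per cell cannot be told apart.

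Markers of other cells varied between these libraries. The 7 immune markers summed to 67.5 to 2304 CPM in Natural and 163 to 5110 CPM in IVF, nearly all of it Lyz2, a lysozyme of macrophages and neutrophils, at up to 5004 CPM. The highest sum was in IVF replicate 2 (donor set 126_4), which also had the highest Nrcam and the lowest Nt5e, Echdc2, Tmx1 and A4galt of the IVF libraries; without it the fitted log2 differences were 0.82, 1.25, -1.04, -0.67 and -1.22 for Nt5e, Nrcam, Echdc2, Tmx1 and A4galt. In the named set the immune sum was 1040 and 2192 CPM in Natural against 387 and 163 CPM in IVF, the 11 granulosa markers summed to 1143 and 1274 CPM against 2025 and 1725 CPM, and the 9 markers of cumulus expansion to 491 and 390 CPM against 982 and 924 CPM. The part of these markers in the members' values was not tested.

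Genes that work beside each member gave no further calls in cumulus cells. The 5 lists, 119 genes in all, covered extracellular adenosine (27 genes), L1-family adhesion and its semaphorin partners (23), mitochondrial beta-oxidation (23), disulfide formation in the endoplasmic reticulum (23) and synthesis and breakdown of glycolipids of the globo and ganglio series (23). Of the 80 list genes tested, edgeR called 0 and DESeq2 called 0, and 11 had an unadjusted p below 0.05. List medians were near that of all genes, 0.00 on the log2 scale: 0.19 for adenosine, 0.07 for L1 adhesion, 0.00 for beta-oxidation, -0.11 for disulfide formation and -0.04 for glycolipids. The smallest unadjusted p-values were those of B3galnt1, which extends Gb3 to globoside, with a log2 difference of -0.97 ± 0.28 (SE, edgeR adjusted p = 0.451), and of Auh, a mitochondrial enoyl-CoA hydratase, with 1.09 ± 0.31 (adjusted p = 0.456).

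The genes most like each member in cumulus cells were found by Pearson's r of log2 CPM over the 10 libraries, after the mean of each library set was taken off, among 6226 genes. These r values are descriptions: the points share library sets and the IVF contrast that chose the members. Nt5e was most like Cabin1 (r = 0.94), Srpk2 (0.93) and Eif2b5 (0.92), and Nrcam most like Fam110a (0.95), Bloc1s1 (0.93) and H2afz (0.92). Echdc2 was most like Cpt1a, which carries long-chain fatty acids into mitochondria (0.96), Fam102b (0.95) and Mbnl1 (0.95). Tmx1 was most like Fkbp14 (0.93), Stmn1 (0.92) and Serinc1 (0.91), and A4galt most like Msantd4 (0.97), Casd1 (0.95) and Dlgap4 (0.93). Over the 19 adult whole ovaries, with group means taken off, the same 15 pairs had r between -0.45 and 0.56, the highest being Tmx1 with Serinc1. Without library 126_2 the 15 values of r in cumulus cells lay between 0.90 and 0.99.

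Within cumulus cells the members also followed each other: Echdc2 correlated with A4galt at r = 0.87, with Tmx1 at 0.83 and with Nrcam at -0.87 (0.90, 0.83 and -0.87 without library 126_2). In the 19 adult ovaries the same pairs had r of -0.02, 0.29 and 0.47, so Echdc2 and Nrcam, opposed in cumulus cells, ran together there. The values in cumulus cells share the contrast that chose Echdc2, A4galt and Tmx1 as lower and Nrcam as higher. That choice by itself favours a positive r among the genes chosen as lower and a negative r of each with Nrcam. Neither a link between the members nor a difference between the tissues is read from these values.

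Mean levels were highest in cumulus cells for 3 of the genes. The cumulus values are those that chose the genes, and such a choice favours a high level there. Whole ovaries were also made with another library protocol than cumulus cells, PGCs and oocytes, so tissue and protocol cannot be told apart between them. Tables were normalised separately as well, so this order is a description. Echdc2 had its highest mean in Natural cumulus cells (653 CPM), followed by IVF cumulus cells (258 CPM), 12-week ovaries (85.2 CPM in IVF, 84.1 CPM in Natural), 39-week Natural ovaries (53.7 CPM), PGCs (51.3 and 48.2 CPM), 39-week IVF ovaries (40.1 CPM), E18.5 ovaries (30.6 and 28.5 CPM) and oocytes (at most 4.90 CPM). Ranges of neighbours in this order overlapped everywhere except between the 2 cumulus groups and between E18.5 Natural ovaries and oocytes. Tmx1 ran in nearly the same order, from 649 and 368 CPM in cumulus cells through 129 to 116 CPM in adult ovaries and 64.6 to 52.3 CPM in PGCs and fetal ovaries down to 9.45 CPM or less in oocytes.

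Nt5e likewise had its 2 highest means in cumulus cells, 272 and 173 CPM, followed without overlap by 12-week Natural ovaries at 41.4 CPM, and it was lowest in PGCs (1.92 CPM in Natural, 0.889 CPM in IVF). Below cumulus cells each neighbour in its order overlapped the next. Nrcam and A4galt did not peak in cumulus cells. Nrcam was highest in 39-week Natural ovaries (37.8 CPM), ahead of IVF cumulus cells (33.4 CPM), and A4galt in 12-week Natural ovaries (55.9 CPM), ahead of Natural cumulus cells (33.6 CPM), with every neighbour in both orders overlapping the next. Per kilobase of exon, the levels in Natural cumulus cells were 285.5 CPM for Echdc2, 197 for Tmx1, 20.1 for Nt5e, 14.8 for A4galt and 1.18 for Nrcam, so Echdc2 and Tmx1 were the abundant transcripts of the 5 and Nrcam a rare one.

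**Figure D2:**
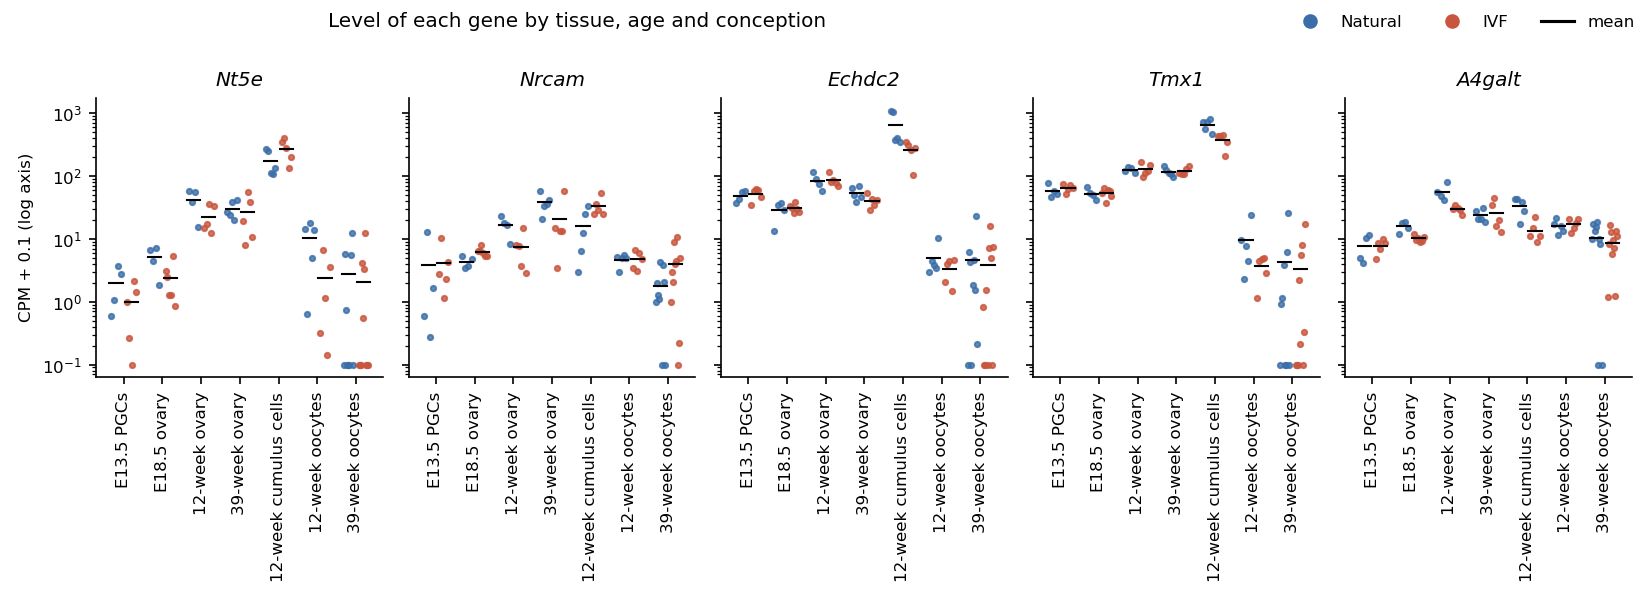
CPM plus 0.1 (log axis) of each gene in every library of the 7 tables, split by conception, with donor-set sums for 12-week oocytes, single oocytes at 39 weeks and black lines for means. Nt5e, Echdc2 and Tmx1 peak in cumulus cells and are low in oocytes, while A4galt is at similar levels in both.

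Cumulus cells and oocytes could be compared within the same donor set for 5 sets (2 Natural, 3 IVF) after the oocytes of a set were summed, all 10 were scaled together and the set was kept as a block. Tmx1 was at 667, 387, 366, 174 and 281 CPM in the cumulus cells of sets 35_3, 92_5, 126_3, 126_4 and 127_2 and at 2.78, 33.3, 5.90, 5.66 and 6.54 CPM in their oocytes. It was higher in cumulus cells in 5 of 5 sets, by 45.6 times (log2 5.51 ± 0.57, SE, edgeR adjusted p = 4.519e-06). Echdc2 was higher in 5 of 5 sets by 39.9 times (log2 5.32 ± 0.44, adjusted p = 8.105e-07), from 1.84 to 14.3 CPM in oocytes to 86.6 to 342 CPM in cumulus cells.

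Nt5e differed most and least evenly. The oocytes of set 127_2 held 2 reads (0.0541 CPM) against 167 CPM in their cumulus cells, whereas those of set 92_5 were at 19.0 CPM against 111 CPM. The fitted difference was 62.8 times (log2 5.97 ± 0.96, SE, edgeR adjusted p = 0.000156), higher in 5 of 5 sets. Nrcam was higher in cumulus cells by 4.55 times (log2 2.19 ± 0.36, adjusted p = 0.000189) in 5 of 5 sets, with 3.55 to 8.81 CPM in oocytes and 20.0 to 45.7 CPM in cumulus cells.

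A4galt stood apart from the other 4. Its oocyte levels were 27.4, 18.7, 17.1, 17.8 and 23.7 CPM in sets 35_3, 92_5, 126_3, 126_4 and 127_2 and its cumulus levels 32.5, 23.0, 18.4, 7.47 and 9.04 CPM. Cumulus cells were slightly higher in 3 sets and lower in 2. The IVF cumulus levels are among the values that chose the gene, so nothing is read from which sets these are. The difference did not pass the test (log2 -0.36, 95% interval -1.08 to 0.36, edgeR adjusted p = 0.314). Thus 4 of the 5 genes passed, all higher in cumulus cells, where edgeR called 83.4% of all genes tested, 36.1% as higher and 47.3% as lower, and the median log2 difference over all genes was -0.60. Adding donor set 126_2 left the same 4 genes called. The genes were chosen on values that include these cumulus libraries, and such a choice favours genes well detected there. The count of 4 is therefore a description, and nothing about the 5 genes as a set is read from it.

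**Figure D3:**
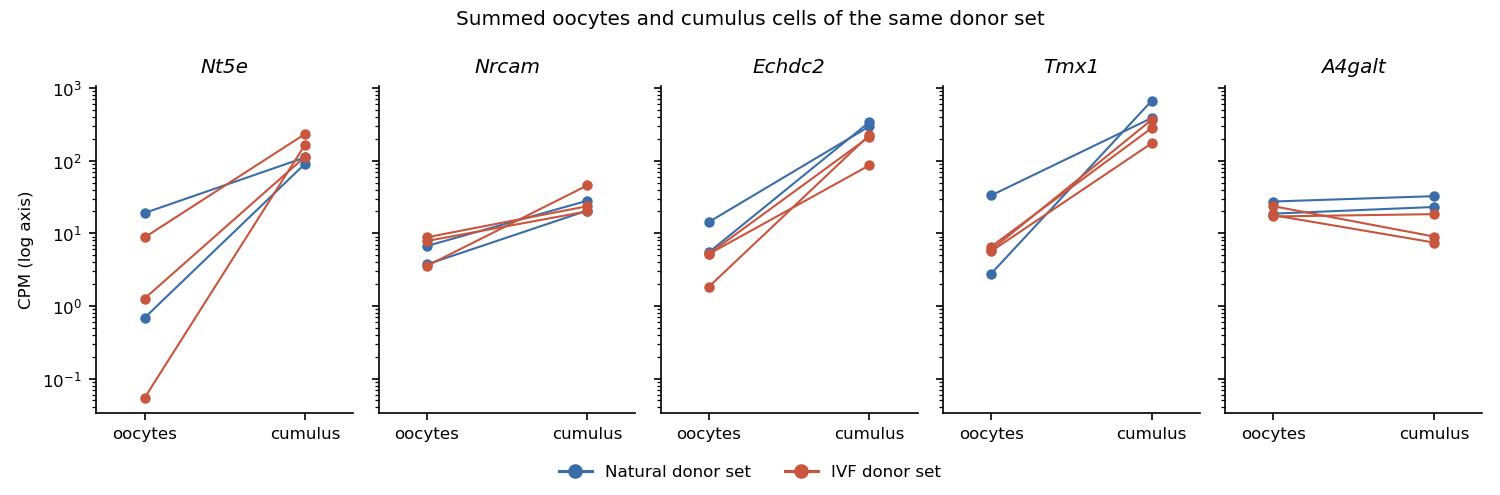
CPM (log axis) of each gene in the summed oocytes and in the cumulus cells of 5 donor sets, joined by lines, coloured by conception. Lines rise steeply for Nt5e, Echdc2 and Tmx1, less for Nrcam, and lie nearly flat or fall for A4galt.

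The genes listed beside the members split between the 2 cell types. Of 23 beta-oxidation genes tested, 19 were higher in cumulus cells and 2 in oocytes, with a median log2 difference of 3.14; Ech1, an enoyl-CoA isomerase of the same family as Echdc2, was higher by 4.77 ± 0.25 (SE, edgeR adjusted p = 4.320e-08). Of 21 disulfide genes, 14 were higher and 5 lower, led by the peroxiredoxin Prdx4 at 4.53 ± 0.52 (adjusted p = 1.086e-05) and by Tmx2, a relative of Tmx1, at 4.51 ± 0.38 (adjusted p = 9.454e-07). Of 19 glycolipid genes 11 were higher and 7 lower, of 16 adenosine genes 5 and 8, and of 15 adhesion genes 4 and 8. List medians were 2.39 for disulfide genes, 2.15 for glycolipids, -0.89 for adenosine and -1.92 for adhesion, beside -0.60 over all genes.

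In 12-week oocytes the counts of single cells were summed over 5 Natural and 5 IVF donor sets of 5 to 8 oocytes each. Sets share leading numbers: 35_1 with 35_3 and 92_3 with 92_4 and 92_5 in Natural, 126_2 with 126_3 and 126_4 and 127_2 with 127_3 in IVF. The labels do not say what the leading number means. Each set was counted as a separate replicate, here and against cumulus cells, so the sets may be less independent than their number implies. Nt5e was at 14.0, 0.536, 17.6, 4.88 and 13.6 CPM in the Natural sets and at 0.216, 6.43, 1.04, 0.0406 and 3.52 CPM in the IVF sets. The 3 Natural sets, 35_1, 92_3 and 92_5 lay above all IVF sets, while set 35_3 fell among the lowest, so the groups overlapped. The log2 difference was -2.16 ± 1.00 (SE, edgeR adjusted p = 0.745), opposite in sign to that in cumulus cells and short of the threshold. Averaging log2(CPM + 1) over the single oocytes of a set instead gave -0.90 (limma adjusted p = 0.663). Among single oocytes 21 of 36 Natural (58.3%) and 16 of 40 IVF oocytes (40%) had a read, the medians were 0.466 and 0 CPM, and the highest were 50.3 and 17.7 CPM.

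Tmx1 was at 9.40, 2.17, 7.53, 4.40 and 23.7 CPM in the Natural sets and at 1.05, 4.32, 4.66, 4.92 and 2.73 CPM in the IVF sets, with set 92_5 highest and the groups overlapping. Its log2 difference was -1.42 ± 0.56 (edgeR adjusted p = 0.715), which became -0.75 without set 92_5 and -0.40 with averaged log2(CPM + 1) (limma adjusted p = 0.835). Echdc2 was also highest in set 92_5, at 10.2 CPM against 2.91 to 4.29 CPM in the other Natural sets and 1.38 to 4.54 CPM in the IVF sets (log2 -0.62 ± 0.41, adjusted p = 0.845), and its difference was -0.18 without that set and -0.09 with averaged log2(CPM + 1). A4galt (11.2 to 21.4 CPM in Natural, 12.5 to 20.9 CPM in IVF; log2 0.12, 95% interval -0.33 to 0.56) and Nrcam (2.91 to 5.38 CPM and 2.92 to 6.45 CPM; log2 0.03, -0.55 to 0.61) lay in the same range in both groups. By edgeR 0 of the 5 genes passed, with 1 of 5 at an unadjusted p below 0.05 and 0 by DESeq2, against 0.0277% of all genes called. Sets did not overlap for 0 of the 5 genes and for 1.38% of all genes. Of 99 list genes edgeR called 0 and DESeq2 called 1, the contactin Cntn5, with 6 at an unadjusted p below 0.05.

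The 11 granulosa markers summed to 64.1 to 79.5 CPM in the Natural oocyte sets and 57.0 to 96.8 CPM in the IVF sets, against at least 1143 CPM in cumulus cells. Of that sum, 28.6 to 57.8 CPM came from Cyp19a1, the aromatase gene, which was at most 5.37 CPM in cumulus cells, so the sum is no measure of cumulus RNA there. Inha, at 845 CPM or more in cumulus cells, was at 2.64 to 16.3 CPM in Natural and 3.35 to 29.9 CPM in IVF oocyte sets. The part of cumulus RNA in the oocyte values was not tested.

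For 39-week oocytes the library names give nothing to read as a donor set, so each group counts as 1 sample without replication and no test was made. Summed over oocytes, Nt5e was at 2.17 CPM in Natural (exact Poisson 95% interval 1.90 to 2.46) and at 0.994 CPM in IVF (0.853 to 1.15), 2.18 times higher in Natural. Nrcam was at 1.44 CPM (1.22 to 1.68) and 2.96 CPM (2.72 to 3.23), 2.06 times higher in IVF. Echdc2 (3.53 and 2.80 CPM), Tmx1 (2.46 and 2.66 CPM) and A4galt (9.54 and 8.37 CPM) differed less. So 2 of the 5 genes passed a fold of 2, as did 30.1% of all genes kept. These intervals cover counting error only, and 1 oocyte held 63.3% of the Tmx1 reads of the IVF group. Averaging CPM over oocytes instead gave 1 gene past a fold of 2, Nrcam, and turned the log2 ratio of Tmx1 from 0.12 to -0.34.

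In fetal ovaries A4galt was the gene of the 5 that passed the test. It was at 12.0, 17.5, 18.1 and 14.7 CPM in Natural and at 11.9, 9.44, 10.2, 8.69, 9.23 and 10.6 CPM in IVF at E18.5, with every IVF ovary below every Natural ovary, though the nearest pair differed by little. IVF fell by 0.63 ± 0.17 on the log2 scale (SE, edgeR adjusted p = 0.0440), the same direction as in cumulus cells. The call was marginal: it was lost when any of 8 of the 10 ovaries was left out, with adjusted p up to 0.129, and without the filter on low counts (adjusted p = 0.0701). With the replicate number as a block the adjusted p was 0.274. DESeq2 kept the call (adjusted p = 0.00790). By edgeR 1 of the 5 genes was called, beside 5.43% of all genes.

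The other 4 genes did not pass at E18.5. Nrcam was at 3.35 to 5.15 CPM in Natural (36 to 70 reads) and 5.26 to 7.97 CPM in IVF (38 to 96 reads), without overlap (log2 0.56 ± 0.23, edgeR adjusted p = 0.159). Nt5e was at 6.65, 4.34, 7.16 and 1.75 CPM in Natural and 0.752 to 5.32 CPM in IVF, with a median of 1.78 CPM (log2 -1.13 ± 0.51, adjusted p = 0.200). Echdc2 (log2 0.10, 95% interval -0.41 to 0.61) and Tmx1 (0.02, -0.33 to 0.37) had the same range in both groups, with Natural replicate 1 low for Echdc2 at 13.1 CPM. Groups did not overlap for 2 of the 5 genes and for 8.61% of all genes. Among the 111 list genes tested 4 passed: St8sia1, which makes the ganglioside GD3 (0.81 ± 0.21, adjusted p = 0.0412), Ugt8a, which makes galactosylceramide (1.36 ± 0.35, adjusted p = 0.0415), and Ank1, an ankyrin (1.36 ± 0.35, adjusted p = 0.0384), were higher in IVF and Alpl, a phosphatase that can also release adenosine, lower (-0.67 ± 0.17, adjusted p = 0.0354).

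Markers of other cells differed in level between the fetal groups. The 6 erythroid markers summed to 584 to 1595 CPM in Natural and 1638 to 4597 CPM in IVF, without overlap, and the 12 oocyte markers to 206 to 855 CPM in Natural and 19.8 to 239 CPM in IVF, with overlap. The 8 markers of fetal germ cells overlapped too, at 161 to 602 CPM and 151 to 364 CPM. Their part in the values of A4galt, Nrcam and the list genes that passed, Ank1 among them, was not tested.

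At 12 weeks A4galt again lay lower in every IVF ovary, at 29.9, 34.1, 31.2, 28.7 and 23.7 CPM against 55.0, 48.0, 41.0 and 79.5 CPM in Natural. The log2 difference was -0.92 ± 0.19 (SE), the largest of the 3 ages, but with an edgeR adjusted p of 0.142 it was not called, while DESeq2 called it (adjusted p = 0.00127); over all alternatives the adjusted p ranged up to 0.321. Nrcam was at 23.0, 17.6, 16.2 and 8.16 CPM in Natural and at 7.74, 7.61, 3.58, 14.9 and 2.71 CPM in IVF, lower in IVF in the mean but overlapping (log2 -1.22 ± 0.47, adjusted p = 0.279). Nt5e was at 57.5, 38.2, 54.5 and 15.5 CPM in Natural and at 14.5, 17.4, 35.3, 12.2 and 33.0 CPM in IVF, also overlapping (log2 -0.87 ± 0.42, adjusted p = 0.370). Both are opposite in sign to cumulus cells, where they were chosen as higher in IVF.

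Echdc2 (58.4 to 114 CPM in Natural, 68.0 to 116 CPM in IVF; log2 0.02, 95% interval -0.44 to 0.48) and Tmx1 (111 to 137 CPM and 97.2 to 167 CPM; log2 0.04, -0.31 to 0.39) had overlapping ranges at 12 weeks. By edgeR 0 of the 5 genes passed, with 2 of 5 at an unadjusted p below 0.05 and 1 called by DESeq2, against 0.00567% of all genes. Groups did not overlap for 1 of the 5 genes and for 6.08% of all genes. Of 114 list genes 0 passed by edgeR, 27 had an unadjusted p below 0.05 and 8 were called by DESeq2. The 7 markers of oviduct and surface epithelium summed to 3671 to 8123 CPM in Natural and 186 to 3406 CPM in IVF, without overlap, and their part in the ovary values was not tested.

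At 39 weeks no difference in the 5 genes passed the test. A4galt was at 27.5, 20.4, 20.2, 30.7 and 18.1 CPM in Natural and at 34.3, 44.7, 16.1, 19.6 and 12.6 CPM in IVF, on both sides of the Natural range (log2 0.13, 95% interval -0.60 to 0.86, edgeR adjusted p = 0.859). Nrcam was at 57.9, 20.8, 32.8, 35.5 and 42.0 CPM in Natural and at 14.5, 3.38, 13.3, 13.2 and 56.8 CPM in IVF, so 4 IVF ovaries lay below all Natural ones and replicate 5 near the top. Its log2 difference was -0.90 ± 0.59 (adjusted p = 0.415) and -1.77 without IVF replicate 5. Echdc2 was at 37.8 to 70.1 CPM in Natural and 28.3 to 52.9 CPM in IVF (log2 -0.42 ± 0.20, adjusted p = 0.278), in the direction of cumulus cells. Nt5e (log2 -0.19, -1.27 to 0.89) and Tmx1 (0.05, -0.23 to 0.33) did not pass either.

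By edgeR 0 of the 5 genes were called at 39 weeks, with 0 at an unadjusted p below 0.05 and 0 by DESeq2, against 0.262% of all genes. Groups did not overlap for 0 of the 5 genes and for 5.13% of all genes. Of 110 list genes 0 passed by edgeR, 27 had an unadjusted p below 0.05 and 8 were called by DESeq2. IVF replicate 1 stood apart with 8842 CPM of oviduct and surface epithelium markers, against 148 to 323 CPM in the Natural ovaries and 160 to 282 CPM in the other IVF ovaries; without it the A4galt difference was -0.01.

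**Figure D4:**
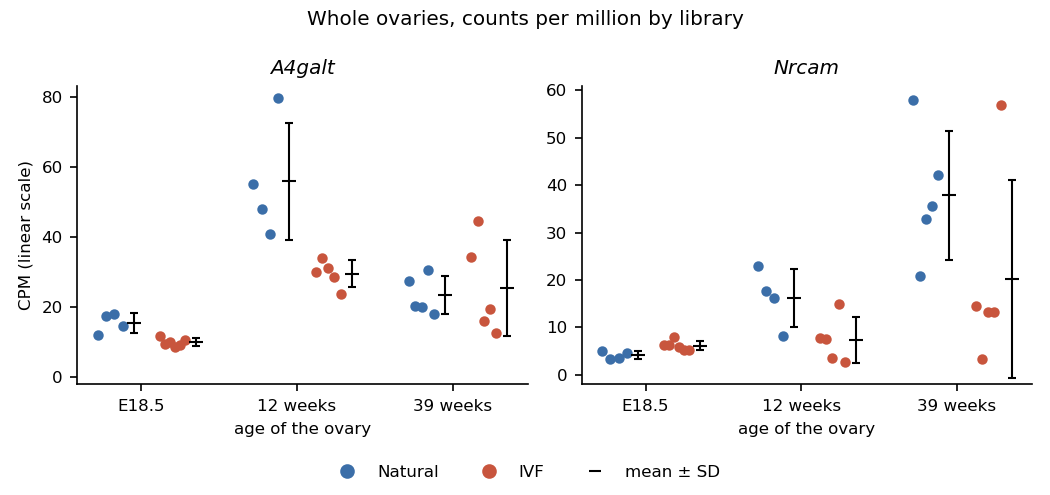
CPM (linear axis) of A4galt and Nrcam in each whole ovary by age and conception, with mean ± SD. A4galt in IVF lies below Natural at E18.5 and 12 weeks and spreads around it at 39 weeks; Nrcam in IVF lies above Natural at E18.5 and mostly below it later.

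In ovaries each age has its own count table, so age and any sequencing batch cannot be told apart. Whether the IVF difference itself changed with age was tested in 1 fit of all 29 ovaries. For A4galt it was 1.03 ± 0.35 log2 units higher at 39 than at 12 weeks (SE, edgeR adjusted p = 0.0919), short of the threshold but past it without IVF replicate 5 of the 39-week group (1.20, adjusted p = 0.0322). That was the 1 of 22 alternatives that passed, and over the 22 the value ran from 0.72 to 1.20 and the adjusted p up to 0.215. For Nrcam it was 1.75 ± 0.73 lower at 12 weeks than at E18.5 in log2 units (adjusted p = 0.276). Of the 5 genes 0 passed between 12 and 39 weeks, with 1 at an unadjusted p below 0.05 and 0 by DESeq2, and 2.71% of all genes did. Between E18.5 and 12 weeks 0 of 5 passed, with 1 at an unadjusted p below 0.05 and 0 by DESeq2, and 0.314% of all genes did. Between 12 and 39 weeks 4 list genes passed, all with a higher IVF difference at 39 weeks: B4galt6, a lactosylceramide synthase (1.15 ± 0.23, adjusted p = 0.0158), Entpd2, an ecto-nucleotidase (1.60 ± 0.44, adjusted p = 0.0471), Gal3st1 and Slc28a3. For the last 2, near 0 reads in 39-week Natural ovaries, no fold is given. Markers of oviduct and surface epithelium were lower in IVF than in Natural ovaries at 12 weeks and stood high in IVF replicate 1 at 39 weeks. Their part in the values of A4galt and of these list genes was not tested.

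All 5 genes were higher in Natural ovaries at 12 weeks than at E18.5. Here too age cannot be told apart from any sequencing batch. Nt5e rose 8.80 times (log2 3.14 ± 0.60, SE, edgeR adjusted p = 0.000115), Nrcam 4.05 times (adjusted p = 0.00389), A4galt 3.81 times (adjusted p = 3.264e-06), Echdc2 3.16 times (adjusted p = 6.317e-06) and Tmx1 2.53 times (adjusted p = 1.179e-06). So 5 of 5 genes rose, where 49.7% of all genes were called, 25.3% as higher and 24.3% as lower. The genes were chosen on values in 12-week cumulus cells, which may favour genes well detected in ovaries of that age. The count of 5 is therefore a description, and nothing about the 5 genes as a set is read from it. The beta-oxidation list rose with Echdc2, 21 of 23 genes higher and 0 lower, including Cpt1a by 2.26 ± 0.20. Of the 23 genes listed beside Nrcam, 1 was higher and 8 were lower, among them L1cam by -2.63 ± 0.54 and the contactin Cntn4 by -2.75 ± 0.45. Markers of other cells moved over the same interval: those of oviduct and surface epithelium went from 719 to 1030 CPM at E18.5 to 3671 to 8123 CPM at 12 weeks, those of theca and stroma from 13742 to 22030 CPM to 4414 to 6430 CPM, and those of fetal germ cells from 161 to 602 CPM to 13.7 to 27.5 CPM. None of these ranges overlapped, and their part in the members' values was not tested.

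From 12 to 39 weeks in Natural ovaries A4galt fell by 1.13 ± 0.25 on the log2 scale (edgeR adjusted p = 0.00322), from 41.0 to 79.5 CPM down to 18.1 to 30.7 CPM without overlap. It was the gene of the 5 that was called, where 21.6% of all genes were. Again age cannot be told apart from any sequencing batch. Nrcam was higher by 1.35 ± 0.51 (adjusted p = 0.0590), a difference that DESeq2 called. Nt5e (-0.34 ± 0.51), Echdc2 (-0.52 ± 0.23) and Tmx1 (0.01 ± 0.17) did not pass. The 12-week A4galt mean in IVF, 29.5 ± 3.82 CPM (SD, n = 5), lay between the Natural means of the 2 ages, 55.9 ± 16.7 CPM (n = 4) and 23.4 ± 5.42 CPM (n = 5). The IVF values at 12 weeks overlapped the Natural values at 39 weeks. These CPM were scaled within each age, and their order was not tested. The oviduct and surface epithelium markers fell over the same interval, from 3671 to 8123 CPM at 12 weeks down to 148 to 323 CPM at 39 weeks in Natural ovaries, without overlap, and their part in the A4galt difference was not tested.

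In E13.5 PGCs no IVF difference of the 5 genes passed the test. Echdc2 (37.3 to 56.9 CPM in Natural, 34.0 to 61.4 CPM in IVF; log2 0.09, 95% interval -0.39 to 0.57) and Tmx1 (45.5 to 77.6 CPM and 50.9 to 73.4 CPM; 0.16, -0.28 to 0.59) were well expressed in both groups. A4galt was at 4.91, 4.09, 10.3 and 11.4 CPM in Natural and 4.73 to 9.77 CPM in IVF (log2 -0.01 ± 0.42, edgeR adjusted p = 1.00). Nt5e had 0 to 20 reads per library, too few to show a difference of moderate size (log2 -1.11, -3.23 to 1.02). Nrcam had 131 reads in Natural replicate 2 and 1 to 7 reads in the other Natural libraries. By edgeR and by DESeq2 0 of the 5 genes were called, with 0 at an unadjusted p below 0.05, and the share over all genes was 0.00%. Groups did not overlap for 0 of the 5 genes and for 1.20% of all genes. Of 88 list genes 0 were called by either tool, with 2 at an unadjusted p below 0.05.

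**Figure D5:**
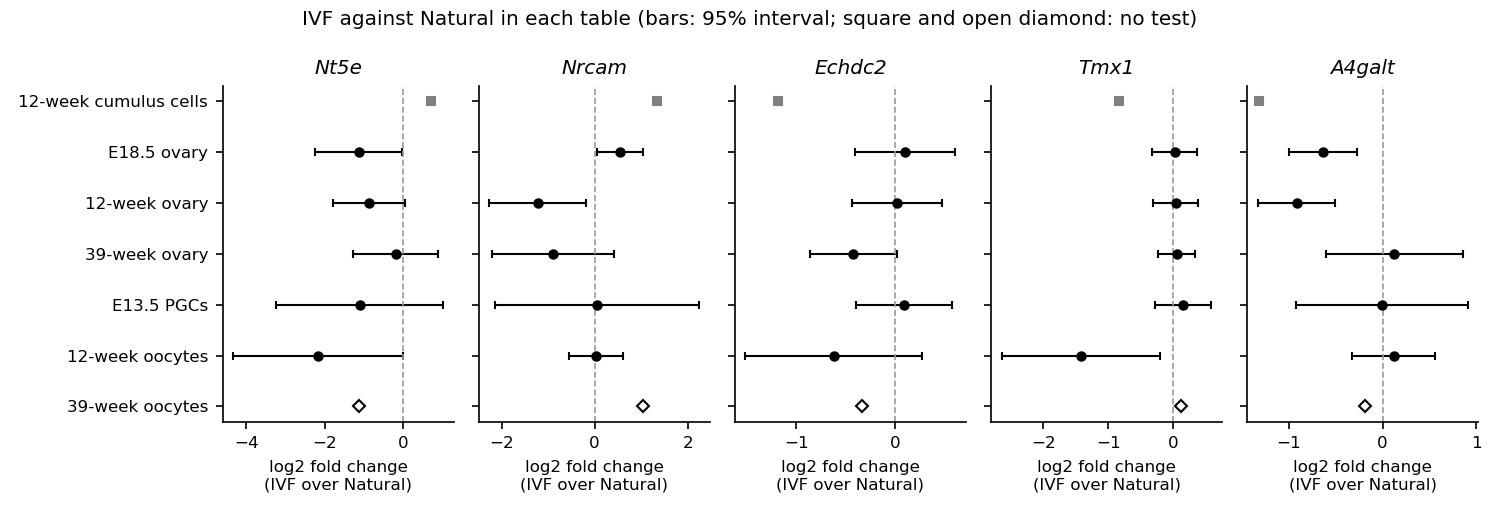
Log2 fold change, IVF over Natural, of each gene in each table, with 95% intervals from edgeR for the tested tables, a square for cumulus cells (the contrast that chose the genes) and an open diamond for the untested ratio in 39-week oocytes. The intervals are not adjusted for the number of genes tested. They lie below 0 for A4galt in E18.5 and 12-week ovaries, Nt5e in E18.5 ovaries, Nrcam in 12-week ovaries and Tmx1 in 12-week oocytes. For Nrcam in E18.5 ovaries the interval lies above 0. Of these, A4galt in E18.5 ovaries alone passed after adjustment. Nt5e, chosen as higher in cumulus cells, is negative in the 6 other tables, though in 39-week ovaries it turned positive with single libraries left out.

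Side by side, the difference seen in cumulus cells had the same sign elsewhere as follows. Nt5e had the opposite sign in all 6 other tables, except that in 39-week ovaries it turned positive, up to 0.05, with a library left out. A4galt had the same sign in E18.5 ovaries, 12-week ovaries, PGCs and 39-week oocytes and the opposite sign in 39-week ovaries and 12-week oocytes, and in PGCs and 39-week ovaries the sign turned when single libraries were left out. Echdc2 was negative in 39-week ovaries and in oocytes of both ages, and Tmx1 was negative in 12-week oocytes. Tmx1 was positive at 0.05 in 39-week ovaries and at 0.12 in 39-week oocytes, which turned to -0.02 with a library left out and to -0.34 with averaged CPM, respectively, and it and Echdc2 were within 0.16 log2 units of 0 in fetal ovaries, 12-week ovaries and PGCs. Nrcam was positive in E18.5 ovaries and 39-week oocytes, within 0.06 of 0 in PGCs and 12-week oocytes and negative in adult ovaries.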

How the data were processed

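RNA was measured with a stranded mRNA kit in whole ovaries and with a modified SMART-Seq protocol and Nextera libraries in PGCs, single oocytes and cumulus pools. The deposited tables hold raw counts of reads per gene name, made by the authors; their notes name Trimmomatic 0.32, STAR 2.3.0e, featureCounts 1.5.0, DESeq2 and mm10. Groups came from the labels, and 143 libraries in 7 tables were used. Members and lists were chosen with earlier results of these data known. CPM were scaled by TMM within a table (plain CPM for single oocytes and markers). Tests were edgeR 4.0.16 quasi-likelihood fits (R 4.3.3) after filterByExpr, with Benjamini-Hochberg adjustment over all genes and a threshold of 0.05, checked on simulated data; DESeq2 1.42.0 and limma 3.58.1 served alternatives. Reads of 12-week oocytes were added up within each donor set. Depth, from 839781 counts in an oocyte to 43363799 in an ovary, limits low genes such as Nrcam and Nt5e. No library pair lay within sampling noise (chi-square per degree of freedom at least 5.93).

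Named genes were the members, the list genes that passed the test (up to 4 a list and comparison) and the 3 genes most like each member; B3galnt1 and Auh were named after their values were seen. The replicate numbers of the labels were not taken as pairs: correlations of same-numbered deviations ran from -0.36 to 0.54, not above 0.1 in every pair of any table. This check cannot exclude pairing. In PGCs the values were 0.28, 0.54, -0.07 and 0.33, and in 39-week ovaries 0.40, 0.21, -0.01, 0.06 and 0.20. For cumulus cells 4 libraries have an earlier record of the same name, which was not used.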

Additional observations from a re-analysis of the deposited data

Results flagged for a closer look

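For groups of 4 to 10 libraries, a library was marked by the gap between its value and the next. The mark was given when this gap, relative to the range of the group, exceeded Dixon's 95% limit. Of 70 groups examined 10 held such a library. The limit marks about 1 group in 20 for independent, normally distributed values. The groups here share libraries across genes, and 39-week oocytes reached 0 CPM, so no excess of marks is read from the count. In 12-week oocytes, Natural donor set 92_5 stood at 10.24 CPM for Echdc2, above 2.91 to 4.29 CPM in the other Natural sets, and Natural set 35_3 stood low for Nrcam at 2.91 CPM, below 4.77 to 5.38 CPM. In 39-week ovaries, IVF replicate 5 had 56.78 CPM of Nrcam against 3.38 to 14.5 CPM in the other 4. In PGCs, Natural replicate 2 had 12.77 CPM of Nrcam against 0.178 to 1.54 CPM.

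The remaining marks were in single 39-week oocytes, and 3 of them in the same Natural oocyte. Natural oocyte 8 had 22.59 CPM of Echdc2 (others at most 6.13 CPM), 12.44 CPM of Nt5e (others at most 5.66 CPM) and 25.54 CPM of Tmx1 (others at most 6.13 CPM). In IVF, oocyte 7 had 15.95 CPM of Echdc2 (others at most 7.20 CPM) and 12.05 CPM of Nt5e (others at most 4.08 CPM), and oocyte 10 had 16.84 CPM of Tmx1 (others at most 7.80 CPM).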

How the results depend on the processing

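Of 723 member values recomputed under alternatives outside cumulus cells, 646 kept their direction and side of the threshold, 10 lost and 4 gained the call, 62 reversed and 1 moved. None of the 62 had passed the test as reported, and the cause was not tested. In cumulus cells, where the values are a description, 88 of 90 stayed within the spread of the libraries and kept their sign, 2 moved (the log2 ratios of Nrcam at 2.71 and Echdc2 at -1.71 in the named set), and 14 were past the threshold although none was as reported. Members called in E18.5 ovaries went from 1 to 0 without the filter and to 0 to 1 with a library left out. In 12-week ovaries DESeq2 called 1, and between 39-week and 12-week Natural ovaries it called 2 (1 to 2 with a library left out). In cumulus cells DESeq2 called 5, the fit without the filter 4, the fit with library 126_2 as IVF 1, and 0 to 1 with a library left out. The IVF effect differing between 12 and 39 weeks was called for 0 to 1. Averaged 39-week oocytes gave 1 past the fold and Tmx1 at -0.34. Without the filter, Echdc2 and Tmx1 in 12-week ovaries were -0.014 and -0.0028 and A4galt in PGCs 0.0045.

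With a library left out, log2 differences ranged as follows where the sign turned. At E18.5, Echdc2 ran from -0.14 to 0.26 and Tmx1 from -0.083 to 0.15. In 12-week ovaries, Echdc2 ran from -0.14 to 0.18 and Tmx1 from -0.10 to 0.12. In 39-week ovaries, Nt5e ran from -0.65 to 0.046, Tmx1 from -0.024 to 0.14 and A4galt from -0.17 to 0.30. In PGCs, Nrcam ran from -0.62 to 2.45, Echdc2 from -0.0091 to 0.21 and A4galt from -0.23 to 0.25, and 12-week oocytes gave -0.11 to 0.15 for Nrcam. Tmx1 between 39-week and 12-week Natural ovaries ran from -0.082 to 0.11. For the change of the IVF effect from 12 to 39 weeks, Nrcam ran from -0.56 to 0.66 and Tmx1 from -0.077 to 0.13. From E18.5 to 12 weeks, Nt5e ran from -0.0055 to 0.70, Echdc2 from -0.24 to 0.15 and Tmx1 from -0.12 to 0.16.

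With the replicate number as a block, members called were 0 at E18.5 (A4galt adjusted p = 0.274) and 2 in cumulus cells, and Tmx1 in 12-week ovaries (-0.049), A4galt in 39-week ovaries (-0.012) and A4galt in PGCs (0.025) reversed. All genes called at E18.5 were 3 under the block, 1924 by DESeq2 and 891 as reported. At 12 weeks DESeq2 called 656 against 1 and at 39 weeks 1229 against 45. With a library left out, all genes called ranged from 313 to 1973 at E18.5, from 1 to 5 in 12-week ovaries, from 0 to 123 in 39-week ovaries, from 1 to 8 in 12-week oocytes, from 1 to 5 in cumulus cells, from 10708 to 11332 (11098 as reported) between cumulus cells and oocytes, from 9017 to 9535 (9797) from E18.5 to 12 weeks and from 3026 to 3939 (4267) from 12 to 39 weeks, and PGCs gave 0 throughout. For the change of the IVF effect they ranged from 80 to 1111 (534) between 12 and 39 weeks and from 0 to 96 (62) between E18.5 and 12 weeks. Same-numbered libraries correlated at -0.36 to 0.54, and the numbers were not taken as pairs, though these values cannot exclude pairing. The block was not run for 12-week oocytes, whose donor sets carry no replicate number. Depth limits Nt5e and Nrcam in PGCs and fetal ovaries.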
